A study of Mus musculus with 8 samples.

Results

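Fabp3, Fabp4 and Fabp5, 3 paralogues of the fatty acid binding protein (FABP) family, were followed through single-cell RNA sequencing of stromal cells taken from intact femurs and from healing femurs of mice. They were taken by name, with no measured value in the rule, and are 3 of the 28956 genes in the count tables. Bone stromal cells came from C57BL/6 females that were 12 weeks old at collection. In the Fracture group the left leg had been broken by three-point bending at 10 weeks of age and fixed with an intramedullary nail, and femurs were taken at day 14. These mice had also received ketamine, xylazine and carprofen, whereas Control animals were unfractured wild-type females of the same age for which no such agent is named. Both groups were depleted of lineage-positive, CD45+ and CD117+ cells before droplet capture (Chromium 3′ V3), so any blood class below is a remainder of that step. Each group held 2 cell preparations, Control 1 and 2 and Fracture 1 and 2, with 2 libraries each that were summed. The study calls its Control and Fracture replicates independent, but the labels do not say whether preparations came from separate mice. So p-values measure only the spread between preparations, which may be technical.

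FABPs are small cytoplasmic proteins that bind long-chain fatty acids and carry them between membranes, mitochondria, lipid droplets and the nucleus. Fabp3, the heart-type protein, is best known from muscle, where it serves fatty acid oxidation. Fabp4, the adipocyte-type protein, is abundant in fat cells and in the endothelium of capillaries and is a target of the nuclear receptor PPARγ. Fabp5, the epidermal-type protein, is found in many tissues and can deliver ligands to PPARδ, and in growing bone it labels septoclasts (SCs), mesenchymal cells that resorb cartilage at the border with bone.

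All 3 genes have 4 exons. On GRCm38, Fabp5 (chr3:10012548-10016607, plus strand) and Fabp4 (chr3:10204088-10208576, minus strand) lie 187480 bases apart, with the family members Pmp2 and Fabp9 between them, whereas Fabp3 is on another chromosome (chr4:130308595-130315463, plus strand). Their coding sequences run to 133 codons in Fabp3, 132 in Fabp4 and 135 in Fabp5. The coding sequence of Fabp3 was 65% identical to that of Fabp4 and 56.5% identical to that of Fabp5, and Fabp4 and Fabp5 were 60% identical. The first 90 coding bases are shown for the likeness of the paralogues. They lie at the 5′ end, away from the 3′ ends that these libraries read. Capitals mark a base shared with Fabp4 in the aligned sequences, and in Fabp4 a base shared with both others:
Fabp3: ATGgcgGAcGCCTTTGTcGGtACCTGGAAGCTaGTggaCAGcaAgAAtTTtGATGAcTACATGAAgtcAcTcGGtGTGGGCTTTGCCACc
Fabp4: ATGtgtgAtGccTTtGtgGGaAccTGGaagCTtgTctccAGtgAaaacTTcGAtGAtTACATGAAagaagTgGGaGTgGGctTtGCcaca
Fabp5: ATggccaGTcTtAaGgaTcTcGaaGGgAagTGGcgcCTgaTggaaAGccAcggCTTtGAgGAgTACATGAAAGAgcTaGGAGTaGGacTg
Of these 90 bases, 67 of Fabp3 and 49 of Fabp5 matched Fabp4, and 44 of Fabp4 were shared by all. All 3 begin with ATG, but the alignment pairs the G of the Fabp4 start codon with a later base of Fabp5. The start codon of Fabp5 therefore ends in lower case. Pseudogene copies were counted separately. Fabp3-ps1 held 284 UMIs, equal to 6.19% of the 4587 UMIs of Fabp3, and 5 Fabp5 pseudogenes held 800 UMIs, equal to 1.75% of the 45612 of Fabp5. No such copy was listed for Fabp4, which had 326963 UMIs.

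The libraries held 56543151 to 89126291 UMIs and 3844 to 6449 cells that passed the filters, 20676 Control and 24652 Fracture cells in all. The median Control cell had 7711 UMIs and the median Fracture cell 11351, and the smallest deposited barcode had 1 UMI in Control and 1929 in Fracture. Cells were clustered without the FABP genes and the lipid genes described below, and 9 classes were named from fixed markers. In the 8 classes checked, which leave out megakaryocyte-like cells, every marker was highest in its own class except 1 of 6 for bone marrow stromal cells (BMSC-like, 6576 cells) and 2 of 6 for osteoblasts (osteoblast-like). Of all cells kept, 16.3% and 8.52% were chondrocyte-like in Control, against 57.4% and 55.8% in Fracture. Scrublet called 718 cells (1.58%) as doublets, which were kept, but it called only 1 and 5 cells in 2 Fracture libraries and so had not worked there. The summed level of 7 erythroid markers, haemoglobin genes among them, was higher in both Fracture preparations than in either Control preparation in every class compared except BMSC-like cells, and its part in the results was not tested. Levels are CPM, the UMIs of a gene among the summed cells of a class, scaled so that every class and preparation has the same total, in the order Control 1, Control 2, Fracture 1, Fracture 2.

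Fabp3 was an osteoblast-lineage transcript in both groups. Osteoblast-like cells held 30.4 and 28.0 CPM in Control and 45.5 and 33.0 CPM in Fracture. The Control mean was 10.2-fold above the next class, smooth muscle-like cells with 3.35 and 2.37 CPM, and the preparations of these classes did not overlap. The smooth muscle-like values rest on 12 and 3 UMIs, 11 of the 12 from library 1 of Control 1, without which that preparation stood at 0.573 CPM, below chondrocyte-like cells. Chondrocyte-like cells followed with 2.09 and 2.35 CPM, and below them BMSC-like, endothelial-like, erythroid-like, basophil- and granulocyte-like and fibroblast-like cells, at 0 to 1.88 CPM, overlapped as neighbours in the order. In Fracture the distance to the next class narrowed to 3.55-fold. Erythroid-like cells (8.51 and 13.6 CPM) and BMSC-like cells (11.6 and 6.40 CPM) came next and overlapped, ahead of chondrocyte-like cells (5.60 and 4.49 CPM). The place of erythroid-like cells rests on library 1 of Fracture 2. Without it that preparation stood at 3.21 CPM, below chondrocyte-like cells. Endothelial-like, smooth muscle-like, fibroblast-like and basophil- and granulocyte-like cells held 0 to 2.72 CPM and each overlapped its neighbour.

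Fabp4 was carried by the vessel wall. Endothelial-like cells held 8269 and 9822 CPM in Control and 5325 and 5408 CPM in Fracture. Smooth muscle-like cells were next with 3412 and 3513 CPM in Control and 1955 and 2302 CPM in Fracture, so the endothelial mean was 2.61-fold higher in Control and 2.52-fold higher in Fracture. No preparation of one class reached the other. Control BMSC-like cells, with 114 and 176 CPM, were 23.9-fold below smooth muscle-like cells and above all remaining classes, which ranged from 7.63 CPM in osteoblast-like to 61.1 CPM in basophil- and granulocyte-like cells. The libraries of BMSC-like cells differed, at 149 and 79.8 CPM in Control 1 and 86.3 and 258 CPM in Control 2. In Fracture the basophil- and granulocyte-like class, only 90 and 89 cells, moved to the third place with 287 and 324 CPM, ahead of BMSC-like cells with 165 and 121 CPM. This order rests on single libraries in Fracture 1, where basophil- and granulocyte-like cells held 423 and 120 CPM and BMSC-like cells 88.7 and 241 CPM in libraries 1 and 2, so that it turned without library 1. The other classes lay between 13.01 and 33.6 CPM.

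Fabp5 was spread most widely, and its order changed most between the groups. In Control, endothelial-like cells were highest with 199 and 143 CPM. Basophil- and granulocyte-like cells (114 and 61.0 CPM) and smooth muscle-like cells (80.0 and 93.3 CPM) followed and overlapped. Erythroid-like, BMSC-like, osteoblast-like and chondrocyte-like cells formed a run of overlapping neighbours from 56.9 down to 20.7 CPM, and fibroblast-like cells were lowest with 10.9 and 8.23 CPM. In Fracture, smooth muscle-like cells (524 and 746 CPM) and BMSC-like cells (434 and 352 CPM) both passed endothelial-like cells (214 and 211 CPM), and none of the 3 classes overlapped. The plot of levels by class shows these orders side by side.

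**Figure D1:**
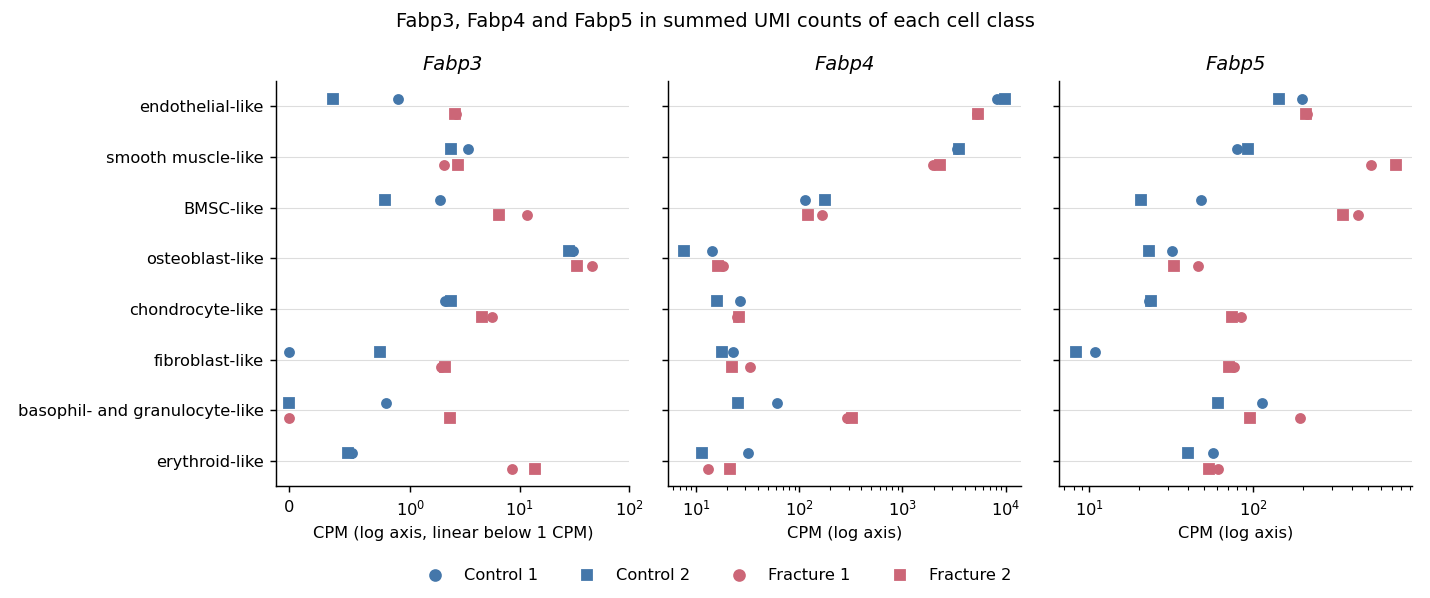
Level of each paralogue in CPM (horizontal log axes, linear below 1 CPM for Fabp3) in 8 cell classes. Each point is 1 preparation, Control in blue and Fracture in red; Fabp3 is highest in osteoblast-like cells, Fabp4 in endothelial-like and smooth muscle-like cells, and Fabp5 in endothelial-like cells in Control but in smooth muscle-like and BMSC-like cells in Fracture.

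Which class held most transcripts of a gene also depended on how many cells the class had. Osteoblast-like cells held 87.1% and 90.7% of all Fabp3 UMIs in Control and 55.2% and 53.2% in Fracture, where chondrocyte-like cells held 32.8% and 33.9% after 5.77% and 4.596% in Control. The endothelial-like share of Fabp4 UMIs was 81.2% and 91.0% in Control and 88.6% and 89.8% in Fracture. No such single source existed for Fabp5. Its largest Control shares were 35.8% and 17.2% in basophil- and granulocyte-like and 23.6% and 28.9% in endothelial-like cells, with erythroid-like cells at 2.89% in Control 1 and 24.4% in Control 2. In Fracture, chondrocyte-like cells held 44.4% and 43.6% and BMSC-like cells 26.7% and 24.1%. Fewer or more cells of a class captured and less or more RNA per cell both enter these shares.

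**Figure D2:**
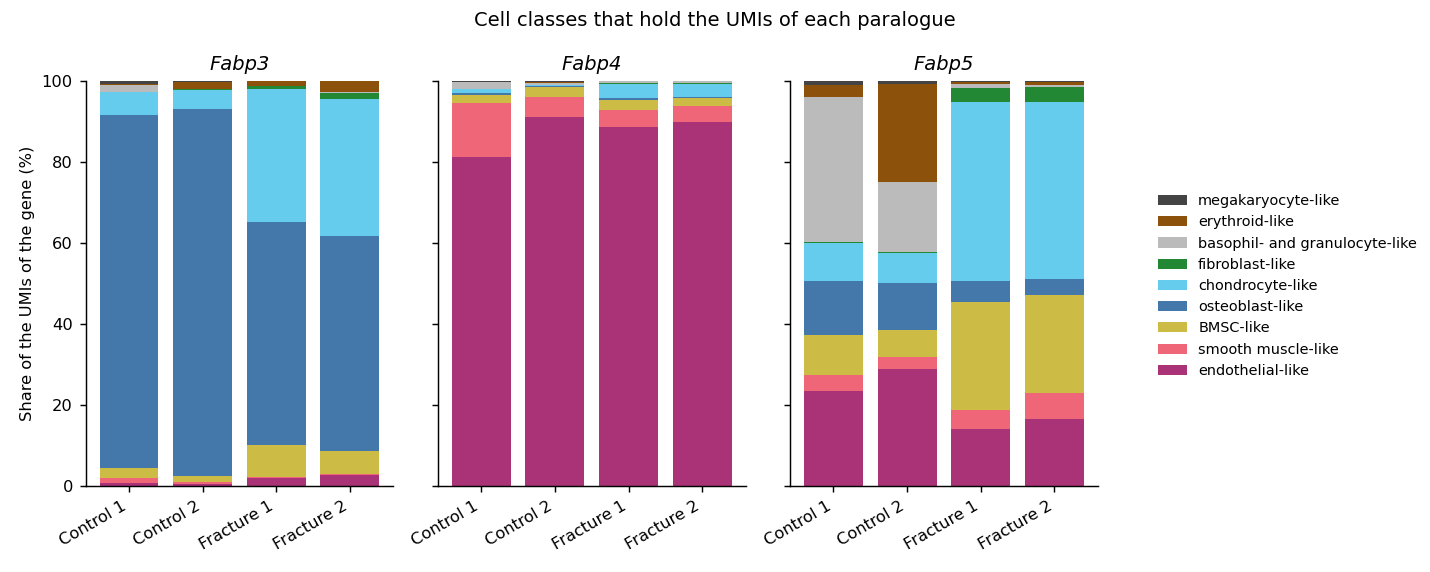
Share of the UMIs of each paralogue (vertical axis, percent) held by each of 9 cell classes in each preparation. Fabp4 comes mostly from endothelial-like cells in all 4 preparations, whereas the bars of Fabp5 change from blood and endothelial-like classes in Control to chondrocyte-like and BMSC-like cells in Fracture.

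Within a class, the mix of paralogues differed by cell type. The 3′ protocol counts 1 molecule per UMI, so the counts of the 3 genes were summed without a correction for length. In osteoblast-like cells Fabp3 made up 39.7%, 47.6%, 41.6% and 40.2% of the UMIs of the 3 genes, with Fabp5 at 39.4% to 41.8% and Fabp4 at 12.99% to 19.7%. Endothelial-like cells were almost pure for Fabp4, at 97.6% and 98.6% in Control and 96.1% and 96.2% in Fracture. BMSC-like cells changed from a majority of Fabp4 to a majority of Fabp5, which held 29.4% and 10.5% of their UMIs in Control and 71.1% and 73.4% in Fracture. Smooth muscle-like cells stayed mostly with Fabp4 while Fabp5 went from 2.29% and 2.59% to 21.1% and 24.5%. In fibroblast-like cells the Fabp5 share was 32.3% and 30.6% in Control and 68.2% and 74.7% in Fracture, on 36 to 869 UMIs per preparation.

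Fracture was compared with Control in each class by the quasi-likelihood test of edgeR, with Benjamini-Hochberg adjustment over all genes tested in the class and calls at an adjusted p under 0.05. Calls were frequent among all genes, which is the background for the members. In BMSC-like cells 2 of 3 members were called, both higher in Fracture, while 51.3% of the 14823 genes tested were called, 25.3% higher and 26% lower. In chondrocyte-like cells again 2 of 3 were called, both higher, beside 37.2% of all genes (19.1% higher and 18.1% lower). Of the endothelial-like cells' 3 members 1 was called, as higher, beside 35.9% (18.8% higher and 17.1% lower). In smooth muscle-like cells Fabp3 was too low to be tested and the other 2 were called in opposite directions, beside 25.7% (13.7% higher and 12% lower). In fibroblast-like cells 1 of 2 tested members was called, as higher, beside 16.8% (8.75% higher and 8.02% lower), and in osteoblast-like cells none of 3 was, beside 16.5% (9.75% higher and 6.71% lower). The mean log2 scaling factor of edgeR (TMM), Fracture minus Control, was −0.19 in BMSC-like and −0.15 in chondrocyte-like cells. It was −0.12 in endothelial-like and −0.24 in erythroid-like cells. A lower factor in Fracture makes the fold changes given later higher than the plain ratios of CPM.

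Fabp5 rose in 4 of the 6 classes outside the blood. In smooth muscle-like cells, the mural cells of vessels, it went from 80.0 and 93.3 to 524 and 746 CPM. Both Fracture preparations were above both Control preparations. The log2 fold change was 2.90 (SE 0.22, edgeR adjusted p = 0.00399), and 2.77 with an adjusted p of 0.0546 when Control 1 was left out. Erythroid markers rose alongside in this class, from a sum of 80.2 and 174 CPM to 3886 and 4265 CPM over 7 genes, none of them at 0 in any preparation, and skeletal muscle markers stood at 1096 CPM in Fracture 1 and at 4.19 to 8.83 CPM in the other preparations. Cycling genes differed too, with Top2a at 13.01 CPM in Control and 134 CPM in Fracture among cells with fewer than 10 UMIs of Fabp5, and at 780 and 330 CPM in the 6 Control and 61 Fracture cells with more. Erythroid-like cells themselves held 60.5 and 53.4 CPM of Fabp5 in Fracture. The part of these transcripts in the result was not tested. The smooth muscle-like class had both Rgs5 and Myh11 among its leading genes. It numbered 724, 210, 165 and 161 cells and was not subclustered. The part of its makeup in its Fabp5 and Fabp4 results was not tested.

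In BMSC-like cells the log2 fold change of Fabp5 was 3.70 (SE 0.45, edgeR adjusted p = 0.00445), and it was 3.22 to 4.45 with any 1 preparation left out. Erythroid markers summed to 164 and 1201 CPM in Control and 974 and 2282 CPM in Fracture in this class, which overlapped. Fibroblast-like cells went from 10.9 and 8.23 to 76.0 and 71.5 CPM (log2 2.97, SE 0.17, edgeR adjusted p = 0.00328), which became 2.96 and 3.04 with adjusted p of 0.105 and 0.106 without Fracture 1 or Fracture 2. The libraries of Control 2 differed in this class, at 14.7 and 1.52 CPM of Fabp5 on 10 and 1 UMIs. Schwann cell markers there were at 453 and 712 CPM in Control and at 1.92 and 3.75 CPM in Fracture. Erythroid markers were at 47.8 and 203 CPM in Control and at 1308 and 1507 CPM in Fracture. The part of both sets of markers was not tested. Chondrocyte-like cells went from 23.0 and 23.9 to 83.9 and 74.3 CPM (log2 1.90, SE 0.08, edgeR adjusted p = 0.00139). Erythroid markers there summed to 143 and 380 CPM in Control and 925 and 989 CPM in Fracture.

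In the other classes outside the blood edgeR did not call Fabp5. Endothelial-like cells held 199 and 143 CPM in Control and 214 and 211 CPM in Fracture, which did not overlap but gave a log2 fold change of 0.43 (SE 0.16, edgeR adjusted p = 0.103), which DESeq2 called (0.44, adjusted p = 0.0401). Leaving out Control 1, the higher of the Control values, gave 0.68, in a fit whose spread came from the Fracture preparations only. Erythroid markers in this class summed to 932 and 252 CPM in Control and 2914 and 3105 CPM in Fracture. Osteoblast-like cells held 32.0 and 23.1 against 45.7 and 32.9 CPM (log2 0.44, SE 0.20, edgeR adjusted p = 0.186, and log2 0.65 without Control 1). Erythroid markers there summed to 68.1 and 146 CPM in Control and 241 and 331 CPM in Fracture.

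Among the 6 classes outside the blood, Fabp4 was called in smooth muscle-like cells, as lower in Fracture. In smooth muscle-like cells the 3412 and 3513 CPM of Control compared with 1955 and 2302 CPM of Fracture (log2 −0.68, SE 0.16, edgeR adjusted p = 0.0329). With any 1 of the 4 preparations left out it was −0.81 to −0.57 and no longer called (adjusted p 0.0861 to 0.143). In endothelial-like cells the levels did not overlap, but the log2 fold change of −0.63 (SE 0.20) had an edgeR adjusted p of 0.0702. It was −0.76 without Control 1 and −0.50 without Control 2.

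In the other classes Fabp4 did not pass the test as designed. BMSC-like cells overlapped between the groups (log2 0.17, SE 0.26, edgeR adjusted p = 0.613). The sign turned without Control 1 or Fracture 1, and the log2 fold change was 0.53 without Control 2. Chondrocyte-like cells held 26.6 and 16.0 against 24.9 and 26.0 CPM (log2 0.40, SE 0.25, edgeR adjusted p = 0.261, but 0.81 and called without Control 1). Osteoblast-like cells held 14.1 and 7.63 against 18.2 and 16.2 CPM (log2 0.59, SE 0.28, edgeR adjusted p = 0.203, but 1.07 and called without Control 1). Fibroblast-like cells held 22.7 and 18.0 against 33.6 and 22.2 CPM (log2 0.49, SE 0.27, edgeR adjusted p = 0.269), but clustering without integration gave 2.75 and a call (edgeR adjusted p = 0.0167). With clusters led by genes of another class removed, a step added after the data had been seen, Fabp4 levels moved. Osteoblast-like cells then held 10.3 and 7.54 CPM in Control and 14.5 and 16.1 CPM in Fracture. Chondrocyte-like cells then held 22.1 and 11.3 CPM in Control and 23.5 and 23.6 CPM in Fracture.

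Fabp3 was called as higher in BMSC-like, chondrocyte-like and endothelial-like cells, at levels far below those of osteoblast-like cells. In BMSC-like cells it went from 1.88 and 0.789 to 11.6 and 6.40 CPM, on 29, 10, 120 and 76 UMIs. The libraries of Control 2 held 1.33 and 0.301 CPM, on 8 and 2 UMIs. The log2 fold change was 2.90 (SE 0.50, edgeR adjusted p = 0.0101) and 2.45 with an adjusted p of 0.0598 without Fracture 1. In chondrocyte-like cells it was 1.35 (SE 0.17, edgeR adjusted p = 0.0087), and without Fracture 1 or Fracture 2 it was 1.20 or 1.49 and no longer called. Removing 3 clusters led by osteoblast, basophil or erythroid genes, a step added after the data had been seen, took away 14, 0, 59 and 31 of its 63, 29, 497 and 456 UMIs and left a log2 fold change of 1.37 (adjusted p = 0.011).

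The endothelial call of Fabp3 rested on a few subclusters. The class held 8, 3, 29 and 35 UMIs of Fabp3 (log2 fold change 2.10, SE 0.42, edgeR adjusted p = 0.0234, not called at 2.12 without Fracture 1 or Fracture 2). Clusters led by erythroid, chondrocyte or osteoblast genes accounted for 264, 180, 273 and 288 of its cells and for 8, 1, 25 and 32 of these UMIs. Without them 0, 2, 4 and 3 UMIs remained, too few to be tested. The same step gave Fabp4 levels of 8829 and 10323 CPM in Control and 6577 and 6699 CPM in Fracture, with a log2 fold change of −0.45 (adjusted p = 0.128), and a Fabp5 log2 fold change of 0.55 (adjusted p = 0.0511). These clusters were picked out after the data had been seen.

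In osteoblast-like cells, where Fabp3 was highest, the fold change was 0.36 on the log2 scale (SE 0.15, edgeR adjusted p = 0.163), called at 0.38 without Control 1 and at 0.32 without Control 2, and 0.14 and 0.54 without Fracture 1 or Fracture 2. Fabp3 was not tested in smooth muscle-like cells (12, 3, 3 and 4 UMIs) or in fibroblast-like cells. The latter held 1 Control and 33 Fracture UMIs, a ratio of levels of 8.64 with a 95% counting interval of 1.45 to 351, which covers counting error only.

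Among blood classes edgeR called none of 12604 genes in basophil- and granulocyte-like cells (0%) and none of 10311 in erythroid-like cells (0%), with 2572 and 2186 genes at an unadjusted p under 0.05 and 1054 and 900 called by DESeq2. Fabp3 in erythroid-like cells went from 0.524 and 0.490 to 8.51 and 13.6 CPM on 2, 12, 17 and 38 UMIs. Of the last 38, 34 came from library 1 of Fracture 2 (22.0 CPM) and 4 from library 2, so that without library 1 this preparation stood at 3.21 CPM. Its log2 value of 4.65 (SE 0.53, edgeR adjusted p = 0.121) was called by DESeq2 at an adjusted p of 2.04e-07. It was also called by edgeR without Control 1 (4.65) or Control 2 (4.63). Skeletal muscle markers in this class stood at 40.1, 65.4 and 59.0 CPM and at 886 CPM in Fracture 2, and erythroid markers at 14092 and 26911 CPM in Control and 87214 and 107000 CPM in Fracture. Fabp4 in basophil- and granulocyte-like cells went from 61.1 and 25.7 to 287 and 324 CPM (log2 2.79, SE 0.44, edgeR adjusted p = 0.113, DESeq2 adjusted p = 2.52e-07, and called by edgeR without Control 1 or Control 2). In Fracture 5 cells of each preparation carried 90.6% and 97.1% of these UMIs, and each of them also held a UMI of the endothelial genes Pecam1 or Cdh5.

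**Figure D3:**
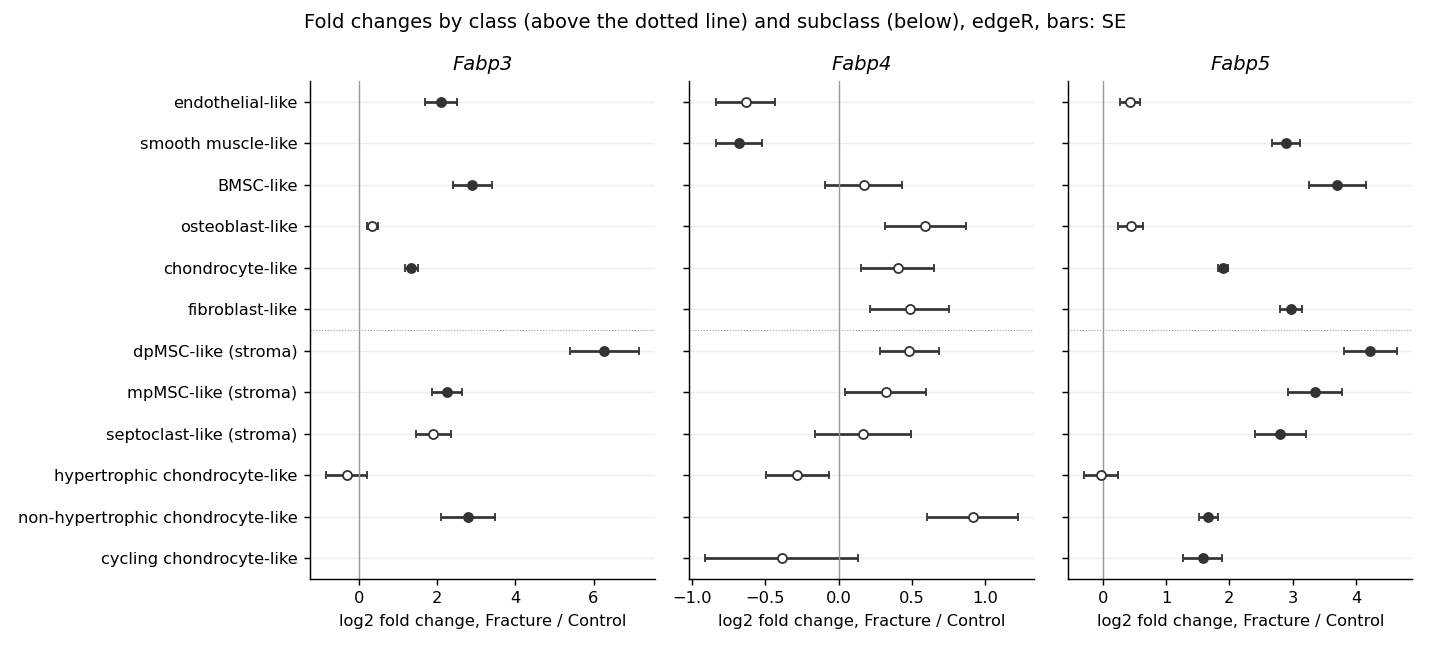
Log2 fold change of Fracture over Control from edgeR (horizontal axis) for each paralogue in 6 classes and 6 subclasses, with bars for the SE. Filled points have an adjusted p under 0.05 and open points do not; missing points were too low to be tested, and the Fabp3 points of dpMSC-like and non-hypertrophic chondrocyte-like cells rest on 1 and 2 Control UMIs.

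The fracture effect itself differed between classes for each paralogue. An F-test of all class-by-group terms over the 6 classes outside the blood, in 1 edgeR fit with the preparation as a block, gave adjusted p of 2.38e-05 for Fabp3, 0.0143 for Fabp4 and 2.68e-07 for Fabp5. In that test 61.4% of 17063 genes passed, so passing it does not set the members apart. The Fabp4 difference did not pass without Fracture 1 (adjusted p = 0.215) or Fracture 2 (adjusted p = 0.0772).

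A joint subclustering of the stromal classes (BMSC-like, fibroblast-like, osteoblast-like) gave these subclasses. The diaphyseal subclass (dpMSC-like, with Adipoq, Lepr and Cxcl12) and the metaphyseal subclass (mpMSC-like, with Limch1, Postn and Hey1 among its markers) both gained Fabp5. BMSC-like cells were 415 and 444 of the 435 and 471 dpMSC-like and 423 and 459 of the 444 and 496 mpMSC-like Fracture cells. In dpMSC-like cells it went from 31.4 and 16.1 to 465 and 284 CPM (log2 4.23, SE 0.42, edgeR adjusted p = 0.00131), a ratio of means of 15.8. In the finer clustering, which put 191 and 238 Fracture cells under this name against 435 and 471, it went from 30.3 and 15.7 to 278 and 201 CPM, a ratio of 10.4 (log2 3.63, SE 0.35, edgeR adjusted p = 0.00173). In mpMSC-like cells it went from 65.4 and 25.6 to 454 and 398 CPM (log2 3.35, SE 0.43, edgeR adjusted p = 0.00801), with adjusted p of 0.0713 and 0.0627 without Fracture 1 or Fracture 2. Fabp5 in septoclast-like cells, named for Mmp9, Mmp13 and other proteases and numbering 252, 123, 229 and 245 cells, stood at 145 and 55.4 CPM in Control, where it overlapped mpMSC-like cells, and reached 713 and 647 CPM in Fracture. Its log2 fold change was 2.81 (SE 0.40, edgeR adjusted p = 0.015), with adjusted p of 0.190 and 0.164 without Fracture 1 or Fracture 2. These subclasses overlap, since septoclast-like cells came from a finer clustering of the same cells. In Control they held 362 and 82 UMIs of Fabp5, and mpMSC-like cells held 399 and 102. Stromal cluster 2 of the finer clustering had Kcnk2, Limch1 and Angpt4 among its leading genes. It held Fabp5 at 10.4 and 7.68 CPM in Control and 90.7 and 72.1 CPM in Fracture, below septoclast-like cells without overlap in either group. Of the members 2 of 3 were called in dpMSC-like cells beside 54.7% of all genes, 2 of 3 in mpMSC-like cells beside 24.1%, and 1 of 3 in septoclast-like cells beside 8.82%. The finer dpMSC-like cells had 39.3% of all genes called.

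Fabp3 and Fabp4 separated the stromal subclasses differently. In Control, Fabp4 was 188 and 251 CPM in dpMSC-like cells against 23.0 and 22.3 CPM in mpMSC-like and 24.5 and 24.3 CPM in septoclast-like cells, and in Fracture 298 and 221 CPM against 18.7 and 32.7 and 17.7 and 34.5 CPM. None of these Fabp4 fold changes was called by edgeR (adjusted p 0.0954, 0.438 and 0.785), but in dpMSC-like cells DESeq2 called it (log2 0.53, adjusted p = 0.0234), as did edgeR without Control 2 (0.71). In the finer clustering, where dpMSC-like cells numbered 1429, 1070, 191 and 238, Fabp4 went from 131 and 96.3 to 579 and 372 CPM (log2 2.32, SE 0.26, edgeR adjusted p = 0.00244), so its result there depended on where the subclass was drawn. Fabp3 lay on the other side, at 3.61 and 2.51 CPM in Control mpMSC-like cells but at a single UMI in all Control dpMSC-like cells. In mpMSC-like cells it went to 18.1 and 9.90 CPM (log2 2.26, SE 0.38, edgeR adjusted p = 0.0151, and 1.81 without a call when Fracture 1 was left out). In dpMSC-like cells 50 Fracture UMIs stood against that 1 Control UMI, a ratio of levels of 86.5 with a 95% counting interval of 14.8 to 3485 (edgeR adjusted p = 0.00365, and 0.0595 without Fracture 1). In the finer clustering 12 UMIs stood against 1, a ratio of 45.6 with an interval of 6.74 to 1948, and the gene was below the filter on low counts. Septoclast-like cells held 6.02 and 2.03 CPM of Fabp3 in Control and 19.6 and 13.04 CPM in Fracture (edgeR adjusted p = 0.0537, and called without Control 1 or Control 2).

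A small number of cells held much of the stromal signal. Of the Fabp4 UMIs of BMSC-like cells, 53.8%, 75.5%, 75.6% and 65.0% sat in 25, 19, 26 and 20 cells with at least 10 UMIs each, and 3, 3, 4 and 1 of these cells held a UMI of Pecam1 or Cdh5. The levels of these endothelial genes were higher there than in the other cells of the class, at 43.1 against 2.77 CPM for Cdh5 and 14.4 against 4.14 CPM for Pecam1 in Control, and at 8.29 against 5.04 and 9.95 against 4.26 CPM in Fracture, and their part was not tested. Without the cells rich in Fabp4 its level in the class was 53.2, 43.6, 41.5 and 43.5 CPM. The Fabp4-rich cells were deeper, with medians of 6880.5 against 5816 UMIs in Control and 12866 against 8565.5 UMIs in Fracture. In Control 39 of the 44 such cells held a UMI of Adipoq, the adipokine of marrow adipogenic cells, and in Fracture 9 of 46 did. Adipoq was also common in the class, found at 1000 UMIs in 1594 of 2562 and 1163 of 1724 Control cells, and its level was 4158 CPM in the Fabp4-rich against 2145 CPM in the other Control cells and 524 against 95.1 CPM in Fracture. Plin1, the lipid droplet coat protein of adipocytes, was found in 3 of these Control and 7 of these Fracture cells, at 86.2 CPM against 0.577 CPM in the other Control cells of the class and at 49.8 against 0.0463 CPM in Fracture. Lpl, lipoprotein lipase, was at 7943 against 3786 CPM in Control and 1033 against 200 CPM in Fracture.

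Cells rich in Fabp5 were set against Mmp9 and against Fabp4. BMSC-like cells with at least 10 UMIs of Fabp5 numbered 11, 4, 100 and 85 and held 46.3%, 27.9%, 67.8% and 67.0% of its UMIs, but the class without them was still at 26.2 and 14.97 CPM in Control and 164 and 131 CPM in Fracture. In Control 14 of the 15 such cells held Mmp9, the gelatinase of septoclasts, at 17497 CPM against 213 CPM in the other cells. In Fracture 78 of 185 held it, at 3610 against 544 CPM. These counts are without thinning, and the Fabp5-rich cells were deeper. Their median was 12524 UMIs against 5817 in the other Control cells and 14875 against 8271 in Fracture. After thinning every cell to 1000 UMIs, Fabp5 was found in 14.3%, 8.3%, 32.0% and 33.8% of BMSC-like cells with Mmp9 and in 2.5%, 1.4%, 16.2% and 12.5% of those without it. With Fabp4 in place of Mmp9 the shares were 5.0%, 5.9%, 32.8% and 25.9% of cells with Fabp4 and 2.7%, 1.4%, 17.8% and 14.9% of those without. Of the 46 Fracture cells with at least 10 UMIs of Fabp4, 37 held Fabp5, at 1091 CPM against 371 CPM in the other cells. This count too is without thinning, at a median depth of 12866 against 8565.5 UMIs. So cells without a detected Mmp9 UMI also carried Fabp5 more often in both Fracture preparations than in either Control preparation.

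Shares of cells with a UMI at this common depth separated Fabp4 and Fabp5 in the vessel wall as well. Fabp5 was found in 2.85% and 1.62% of Control and 18.7% and 15.5% of Fracture BMSC-like cells, and in 3.95% and 7.14% of Control and 31.5% and 39.8% of Fracture smooth muscle-like cells. Fabp4 was found in 67.3% and 79.0% of smooth muscle-like cells in Control and 43.6% and 48.4% in Fracture, but in 77.5%, 76.9%, 74.7% and 76.5% of endothelial-like cells. Chondrocyte-like cells with Fabp5 were 1.89% and 3.12% in Control and 6.39% and 5.71% in Fracture. For comparison, in erythroid-like cells, which are no negative reference for Fabp5 since they held 25.3% to 28.6% of its endothelial level, Fabp5 was found in 3.08%, 2.94%, 2.39% and 1.77% and Fabp4 in 3.41%, 1.52%, 2.39% and 2.13%. Before thinning, median depth in these preparations ran from 5449 to 8795 UMIs in BMSC-like and from 3015 to 8624 UMIs in erythroid-like cells. Each of these differences between the groups had a two-sided exact permutation p of 0.333, the smallest that 2 against 2 preparations allow, apart from Fabp4 in erythroid-like cells with 1. Cells under 1000 UMIs were left out, at most 80 in any class and preparation and 0 in Fracture.

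Low Fabp4 in other classes was set against the endothelial markers Emcn, Cdh5, Pecam1, Kdr, Egfl7 and Tie1. BMSC-like cells had 1.37% to 3.10% of the endothelial Fabp4 level, above all 6 markers, whose medians were 0.25% to 0.51%. Smooth muscle-like cells had 35.8% to 42.6%, and the highest of the 6 markers there was 13.5%. Set against smooth muscle-like cells and their markers instead, the BMSC-like level of 3.33% to 8.45% was above 3 to 5 of 6 markers, the highest of which stood at 9.71% to 14.9%. In chondrocyte-like, osteoblast-like and basophil- and granulocyte-like cells Fabp4 lay within the range of the endothelial markers. In fibroblast-like cells it lay within that range except in Control 1, where it was below all 6, and in erythroid-like cells it was within it in Control and below all 6 in Fracture. For Fabp5 the Fracture levels were set against BMSC-like cells and their 6 markers. Fibroblast-like cells had 17.5% and 20.3% of the BMSC-like level, above 4 of 6 markers, the highest at 43.8% and 43.7%. Chondrocyte-like cells had 19.3% and 21.1%, above 5 of 6, the highest at 34.5% and 34.0%. Smooth muscle-like cells had 121% and 212%, above 4 and 5 of 6. In Control these 3 classes were above all 6. The part of released RNA in these levels was not tested.

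Endothelial-like cells were a mixture in which Fabp4 and Fabp5 followed separate courses. An F-test of the fracture effect between 7 clusters of this class gave adjusted p of 0.00579 for Fabp4 and 1.53e-11 for Fabp5, beside 15.9% of 11568 genes that passed. Clusters 4 and 8 among them were led by erythroid and osteoblast genes, and without these the test over 5 clusters gave 1.11e-15 and 9.46e-18, beside 16% of 11310 genes. Both tests were added after the data had been seen. Clusters that matched no fixed subclass are given by number and leading genes. In cluster 2 (Stab2, Rgs4 and Lipg) Fabp4 was among the highest of all cells with 16329, 18640, 17700 and 16832 CPM and overlapped between the groups (log2 0.02, SE 0.11, edgeR adjusted p = 0.921). Fabp5 in the same cluster rose from 63.6 and 69.6 to 226 and 223 CPM (log2 1.79, SE 0.11, edgeR adjusted p = 0.000402). There 1 of the 2 members tested was called, beside 17.1% of all genes.

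Cluster 3 (Timp4, Penk and Aqp7) and cluster 5 (Vwf, Glycam1 and Tagln) had lower Fabp4 and lower Fabp5 in Fracture. In cluster 3 Fabp4 fell from 12440 and 11322 to 4603 and 4621 CPM (log2 −1.32, SE 0.14, edgeR adjusted p = 0.00156) and Fabp5 from 776 and 753 to 319 and 244 CPM (log2 −1.40, SE 0.16, edgeR adjusted p = 0.00239), so both tested members were called, beside 12.3% of genes. In cluster 5 Fabp4 fell from 19195 and 21123 to 10454 and 9301 CPM (log2 −1.10, SE 0.13, edgeR adjusted p = 0.00404). Fabp5 there went from 990 and 1283 to 672 and 557 CPM (log2 −0.95, SE 0.19, edgeR adjusted p = 0.0257), a call lost without Fracture 2 (−0.83, adjusted p = 0.163) and with the replicate block (−0.94, adjusted p = 0.0518). Again both tested members were called, beside 6.12%. In Control these were the clusters with the most Fabp5, at 753 to 1283 CPM against 63.6 to 80.0 CPM in cluster 2, cluster 0 and arterial endothelial-like cells.

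Arterial endothelial-like cells (Gja5, Sema3g and Gja4; 440, 294, 127 and 168 cells) moved Fabp4 and Fabp5 in opposite directions. Fabp4 fell from 5339 and 5842 to 3710 and 3540 CPM (log2 −0.54, SE 0.10, edgeR adjusted p = 0.025) and Fabp5 rose from 71.7 and 68.2 to 150 and 160 CPM (log2 1.23, SE 0.11, edgeR adjusted p = 0.00527). The share of these cells with a Fabp4 UMI at 1000 UMIs went the other way from its level, from 66.6% and 68.6% to 73.2% and 79.2% (two-sided exact permutation p = 0.333). Both were called, beside 14.2% of genes, and neither was without Fracture 1 or Fracture 2, at −0.56 and −0.52 for Fabp4 and 1.30 and 1.17 for Fabp5. In cluster 0 (Kcne3, Ramp3 and Ednrb) Fabp4 hardly differed, at 4283 and 4827 against 3982 and 4159 CPM (log2 −0.07, SE 0.11, edgeR adjusted p = 0.668), while Fabp5 rose from 78.1 and 80.0 to 146 and 191 CPM (log2 1.19, SE 0.15, edgeR adjusted p = 0.00803, and 0.98 with an adjusted p of 0.0512 without Fracture 2). There 1 of 2 tested members was called, beside 21.9%. Cycling endothelial-like cells, too few to be tested with 17 and 35 in Control, held 105 and 245 CPM of Fabp5 in Control and 342 and 330 CPM in Fracture.

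The makeup of the class changed too, with arterial endothelial-like cells at 27.0% and 23.5% of endothelial-like cells in Control and 10.6% and 12.0% in Fracture. Cluster 6, led by cartilage genes such as Acan and Col2a1, went from 1.47% and 0.479% to 14.8% and 11.9% of cells and from 3.25% and 1.32% to 21.6% and 18.5% of UMIs, and held Fabp4 at 2301 and 1892 CPM in Fracture. Cycling endothelial-like cells went from 1.04% and 2.80% to 10.2% and 9.27% of cells. With 7 clusters weighted by their mean share over the 4 preparations, the ratio of mean Fabp4 levels, Fracture over Control, was 0.754, and that of Fabp5 was 0.952. Over the same 7 clusters without the weights these ratios were 0.678 and 1.26, and in the class as a whole, with the other clusters, 0.593 and 1.24. Cluster 6 and the cycling cells had too few Control cells to be among the 7, and without clusters 4 and 8 the weighted ratios were 0.756 and 0.953 and the unweighted 0.706 and 1.33. The small difference of Fabp5 in the class thus stood for clusters that rose and clusters that fell. Cells with a Fabp4 UMI at 1000 UMIs per cell also held Fabp5 in 16.3%, 13.6%, 18.2% and 19.8% of cases, against 3.2%, 0.7%, 6.6% and 6.1% of endothelial-like cells without Fabp4.

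**Figure D4:**
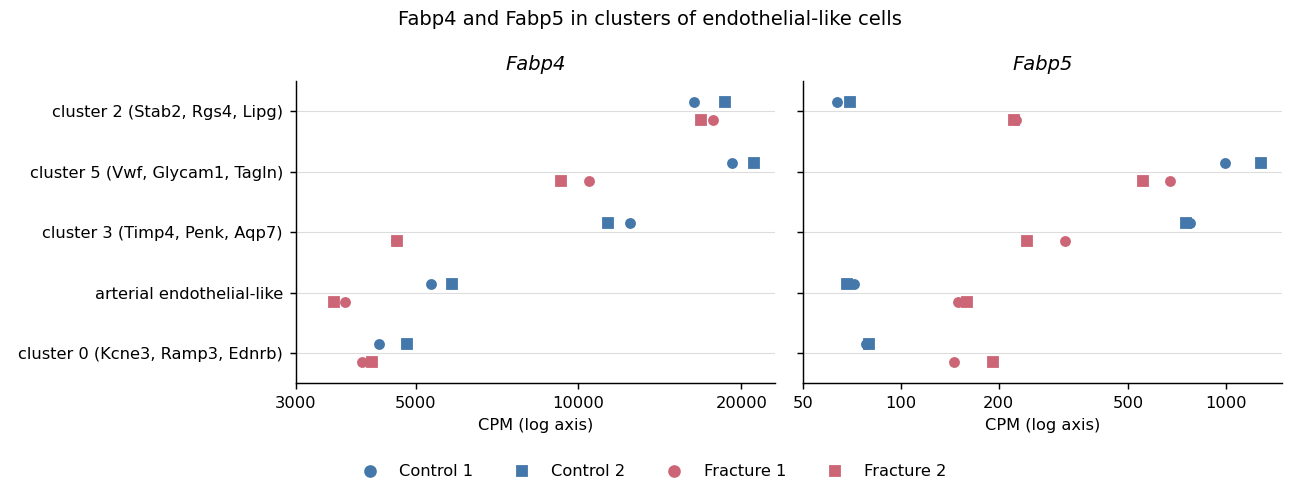
Levels of Fabp4 and Fabp5 in CPM (log axes) in 5 clusters of endothelial-like cells, named by leading genes or as arterial. Each point is 1 preparation, Control in blue and Fracture in red; both genes are lower in Fracture in clusters 3 and 5, whereas in cluster 2, cluster 0 and arterial cells Fabp5 is higher in Fracture.

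In cartilage Fabp5 was compared between the groups within each subcluster tested. Hypertrophic chondrocyte-like cells (Col10a1, Ibsp, Spp1 and Mmp13) held 40.6 and 32.2 CPM in Control and 42.7 and 28.4 CPM in Fracture, which overlapped (log2 −0.03, SE 0.27, edgeR adjusted p = 0.967). The share of these cells with a Fabp5 UMI at 1000 UMIs was lower in Fracture without overlap, at 2.72% and 1.86% against 4.26% and 7.14% in Control, on 6 and 5 Control cells (two-sided exact permutation p = 0.333). None of the 3 members was called there, beside 8.83% of genes. In non-hypertrophic chondrocyte-like cells (Ucma, Matn1 and Prg4 among the markers) Fabp5 rose from 52.8 and 40.5 to 146 and 128 CPM (log2 1.67, SE 0.15, edgeR adjusted p = 0.00254, and 1.59 and 1.77 without a call when Fracture 1 or Fracture 2 was left out). Cycling chondrocyte-like cells went from 24.4 and 47.9 to 98.4 and 94.1 CPM (log2 1.58, SE 0.31, edgeR adjusted p = 0.0346, and 1.54 and 1.56 without a call when Fracture 1 or Fracture 2 was left out). In the cycling cells 1 of 2 tested members was called, beside 9.58%. The level rose in the 3 unnamed clusters tested, where 19%, 24.6% and 7.6% of all genes were called in clusters 4, 0 and 1. Cluster 4, with Col10a1 and Scube3 among its leading genes, went from 3.43 and 7.28 CPM, on 8 UMIs in each Control preparation, to 46.4 and 43.2 CPM (log2 3.24, SE 0.24, edgeR adjusted p = 0.000783). Cluster 0 (Chrdl2, Tnn and Moxd1), the one with the most cells, went from 12.8 and 17.6 to 102 and 93.6 CPM (log2 2.75, SE 0.18, edgeR adjusted p = 0.00155), and cluster 1 (A2m and Rspo4) from 19.5 and 19.4 to 40.2 and 42.3 CPM (log2 1.19, SE 0.10, edgeR adjusted p = 0.00999). The share of cells with a Fabp5 UMI at 1000 UMIs overlapped between the groups in clusters 4 and 1. The difference of these fold changes between subclasses of chondrocyte-like cells was not tested.

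Fabp3 was also called in non-hypertrophic chondrocyte-like cells (edgeR adjusted p = 0.0443), so that 2 of 3 members were called there beside 17.6% of genes. It rested on 2 Control and 54 Fracture UMIs, a ratio of levels of 6.53 with a 95% counting interval of 1.72 to 55.3, and the call was lost with DESeq2 (adjusted p = 0.105), with the replicate number as a block (adjusted p = 0.0873) and without Control 1 or Fracture 2. Fabp4 in these cells was 17.6 and 5.67 CPM in Control and 24.3 and 23.8 CPM in Fracture (log2 0.92, SE 0.31, edgeR adjusted p = 0.0994, and called without Control 1 or Control 2).

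The genes whose levels ran most nearly like each paralogue over the 32 sums of 8 classes and 4 preparations were looked up among 6849 genes with a mean of at least 20 CPM. These sums share libraries and depth, so Pearson's r of log2(CPM + 1) is given as a description. For Fabp3 they were Kcnk1 (r = 0.878), Col24a1 (0.875), Insc (0.851), Entpd3 (0.848) and Dmp1 (0.844), all highest in osteoblast-like cells. For Fabp4 they were Cd300lg (r = 0.963), Arhgef7 (0.954), Entpd1 (0.951), Esam (0.950) and Flt1 (0.940), all highest in endothelial-like cells. Fabp5 had looser neighbours, Ict1 (r = 0.836), Ap2s1 (0.804), Clta (0.787), 2810025M15Rik (0.778) and Cops6 (0.772). Among the paralogues r was 0.659 for Fabp4 and Fabp5, −0.307 for Fabp3 and Fabp4 and −0.041 for Fabp3 and Fabp5.

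The other genes of fatty acid handling were taken from 7 lists with 99 genes in all. Of those tested, 20 rose and 19 fell of 82 in BMSC-like, 26 and 16 of 87 in chondrocyte-like, 19 and 16 of 77 in endothelial-like, 16 and 7 of 76 in osteoblast-like, 8 and 12 of 73 in smooth muscle-like and 6 and 7 of 72 in fibroblast-like cells. The share called was 47.6% in BMSC-like, 48.3% in chondrocyte-like, 45.5% in endothelial-like, 30.3% in osteoblast-like, 27.4% in smooth muscle-like and 18.1% in fibroblast-like cells, which stands beside the shares of all genes given above. No single direction ran through the lists.

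In BMSC-like cells, where Fabp5 rose and Fabp4 did not pass the test, 7 of 12 PPAR and partner regulators were called beside 51.3% of all genes. Of these 6 fell and 1 rose, beside 26% and 25.3% of all genes (list median log2 −0.36 beside −0.03 for all genes), with Cebpa at −2.45 (SE 0.08) and Pparg at −2.43 (SE 0.13). Lpl, which frees fatty acids from lipoproteins, fell from 3937 and 3717 to 219 and 227 CPM (log2 −3.91, SE 0.14, edgeR adjusted p = 0.00118). The makeup of the class changed alongside, with dpMSC-like cells at 65.5% and 72.4% of its cells in Control and 39.0% and 38.4% in Fracture and stromal cluster 4, led by cycling genes such as Top2a, at 1.83% and 0.986% against 11.5% and 11.9%, and its part in these falls was not tested. Of 13 synthesis genes 6 rose and 1 fell, among them Scd2, a desaturase (66.7 and 47.3 to 145 and 137 CPM), and Fasn, fatty acid synthase (log2 1.38). Crabp2, a retinoic acid binding protein of the same fold as the FABPs, rose from 0.713 and 0.316 to 40.9 and 45.0 CPM. Cells of the fibroblast-like subcluster made up 1.82% and 0.201% of the UMIs of the class in Control and 6.11% and 7.57% in Fracture, and the fibroblast-like class held Crabp2 at 455 and 435 CPM in Fracture. The part of those cells in the rise was not tested.

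In endothelial-like cells both Lpl (193 and 122 to 37.9 and 29.4 CPM, log2 −2.11) and Cd36, a fatty acid translocase (457 and 549 to 138 and 134 CPM, log2 −1.77), fell, and so did Mgll, monoacylglycerol lipase (log2 −1.18). BMSC-like cells held far more Lpl, at 3937 and 3717 CPM in Control and 219 and 227 CPM in Fracture. Adipoq stood at 48.8 CPM in Control and 12.6 CPM in Fracture among endothelial-like cells with fewer than 10 UMIs of Fabp5. The part of transcripts from other cells in the Lpl falls of endothelial-like and fibroblast-like cells was not tested. Of 10 uptake genes tested 3 rose and 3 fell, beside 18.8% and 17.1% of all genes, and Lrp1 was among those that rose (log2 2.02). In smooth muscle-like cells the brain-type FABP, Fabp7, rose from 10.6 and 3.95 to 41.3 and 69.3 CPM (log2 2.79, SE 0.48, edgeR adjusted p = 0.0161). The lipid droplet genes Plin4 (log2 −4.02) and Pnpla2, the triglyceride lipase (323 and 301 to 44.0 and 40.8 CPM, log2 −2.86), fell there together with the acetyl-CoA synthetase Acss1 (log2 −3.10), while Hilpda, an inhibitor of that lipase, rose (log2 1.24).

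In chondrocyte-like cells, where 19.1% of all genes rose and 18.1% fell, the lists were not tested as sets. Of 19 oxidation genes 8 rose and 0 fell (median log2 0.19 beside −0.01 for all genes), whereas of 13 synthesis genes 7 fell and 2 rose (median −0.22), with Elovl6 at −1.11, Srebf1 at −0.99 and Acaca at −0.44. Angptl4, a PPAR target that inhibits lipoprotein lipase, rose from 8.74 and 11.3 to 34.4 and 32.6 CPM (log2 1.90), with Vldlr (1.52) and Cebpb (1.37). In osteoblast-like cells Cebpd (2.08), Cebpb (0.99) and the oxidation gene Acaa2 (0.94) rose, and Hadh (−0.45), Me1 (−0.44) and Plin3 (−0.39) fell by less. In fibroblast-like cells Crabp2 (2.14), Plin2 (1.21) and Slc27a3 (1.07) rose, and Lpl (−2.92), Mgll (−1.72) and Scd1 (−0.72) fell, all as log2 fold changes.

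**Figure D5:**
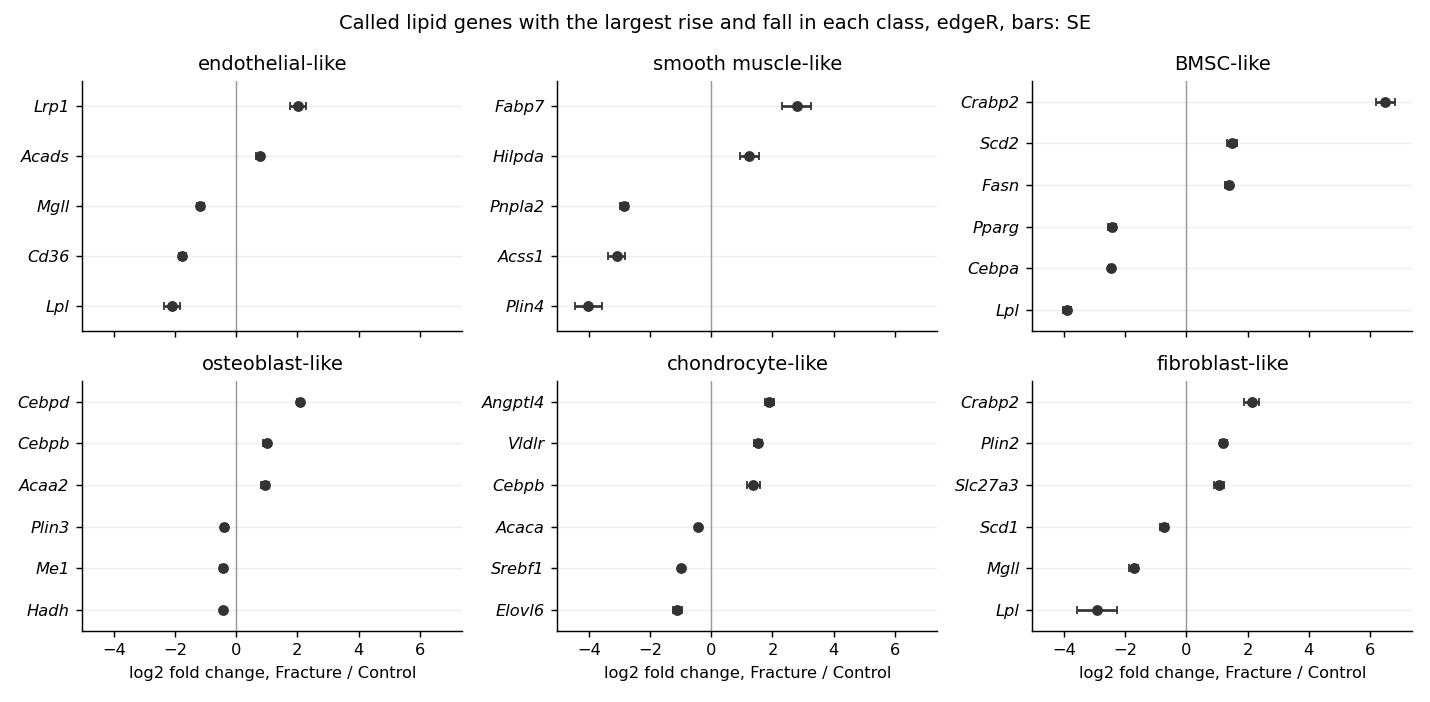
Log2 fold change of Fracture over Control from edgeR (horizontal axis, bars for the SE) of called lipid genes in each of 6 classes, up to 3 that rose most and 3 that fell most, among genes with a mean of at least 20 CPM and no overlap between the groups. Lpl falls in BMSC-like, endothelial-like and fibroblast-like cells, and Crabp2 rises in BMSC-like and fibroblast-like cells.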

How the data were processed

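Bone stromal cells of 4 preparations (2 Control, 2 Fracture) were measured by droplet 3′ single-cell RNA sequencing in 8 libraries. The deposited counts are UMIs per gene and cell, which the authors made without normalization. The study's methods name STARsolo in STAR 2.7.3a, mm10, GENCODE M23 and EmptyDrops, and the submitters' processing notes list bcl2fastq 2.19.1.403, UMI-tools 1.0.0, STAR 2.7.3a and featureCounts 1.6.4. How barcodes were chosen before deposit differed between the groups in its outcome, since only Control holds barcodes of few UMIs.

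Here, cells with 500 to 6000 genes and at most 25% mitochondrial UMIs were kept (45328 of 48903), with genes seen in at least 3 cells. Seurat 5.3.0 clustered them on 2000 variable genes and 12 components at resolution 0.1, with the lipid lists left out. UMIs were summed per class and preparation, for at least 20 cells in each, and tested with edgeR 4.0.16 (TMM, quasi-likelihood, R 4.3.3). DESeq2 1.42.0 was an alternative. Doublets were called by Scrublet in scanpy 1.11.5 at a rate of 6%. Lipid genes were named as the 3 called genes that rose and fell most per class, with at least 20 CPM and no overlap, and 1 gene so chosen is not reported here. Clusters with at least 2 markers of another class among their 10 leading genes were removed as an added alternative. On simulated counts edgeR recovered 65% of 2-fold and 91% of 4-fold changes in BMSC-like cells (14713 genes, 6.59% of calls false), 60% and 97% in endothelial-like cells (14225 genes, 5.42% false) and 56% and 95% in smooth muscle-like cells (10214 genes, 3.21% false). In these simulations every gene had the same dispersion, means were pooled over both groups, and 100 genes were changed at each fold. The recovered and false shares therefore need not hold for the real counts, where far more genes were called. Gene positions and sequences are of GRCm38. Counting intervals cover counting error only. The members and lists were chosen with earlier results of these data known.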

Additional observations from a re-analysis of the deposited data

Results flagged for a closer look

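Library levels were checked in 48 groups for a value far from the other 3, and 3 stood out, where chance alone flags about 1 in 20 groups. Fabp3 in basophil- and granulocyte-like cells was 3.98 CPM in library 2 of Fracture 2, which is 2 UMIs where the other Fracture libraries held 0. Fabp3 in fibroblast-like cells was 1.47 CPM in library 1 of Control 2, which is 1 UMI. Fabp5 in endothelial-like cells was 218 CPM in library 1 of Fracture 1, close above the other Fracture libraries.

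The fracture effect differed between the 6 classes in the edgeR F-test for Fabp3 (adjusted p = 2.38e-05), Fabp4 (0.0143) and Fabp5 (2.68e-07), and between clusters of endothelial-like cells for Fabp4 (0.00579) and Fabp5 (1.53e-11).

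Megakaryocyte-like cells had too few Fracture cells to be compared. Fabp5 there was at 8.07 and 9.69 CPM in Control and at 77.5 and 100 CPM in Fracture, with a Fracture mean of 88.9 CPM, on 73, 25, 22 and 23 UMIs. In Fracture 2 all 23 came from library 2 (13 cells, 201 CPM) and library 1 (5 cells) held 0, so without library 2 that preparation had no Fabp5 UMI.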

How the results depend on the processing

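With 2 preparations per group, leaving one out leaves an arm with a single sample, which is then assumed to vary like the other group. A call gained or lost in such a fit therefore does not measure the spread within that arm. In endothelial-like, fibroblast-like and osteoblast-like cells edgeR then called 0 genes of all those tested without either Fracture preparation, so lost calls of members there are shared with every other gene. The number of genes called ranged from 2884 to 9516 in BMSC-like, 347 to 9065 in chondrocyte-like, 0 to 7330 in endothelial-like, 0 to 4109 in fibroblast-like, 0 to 5158 in osteoblast-like and 0 to 723 in smooth muscle-like cells.

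The log2 fold changes with 1 preparation left out, where a call or sign changed, ranged as follows. Fabp3 ranged from 2.43 to 3.68 in BMSC-like, 1.20 to 1.49 in chondrocyte-like, 1.63 to 2.88 in endothelial-like and 0.14 to 0.54 in osteoblast-like cells. Fabp4 ranged from −0.09 to 0.53 in BMSC-like, 0.10 to 0.81 in chondrocyte-like, −0.76 to −0.50 in endothelial-like, 0.24 to 1.07 in osteoblast-like and −0.81 to −0.57 in smooth muscle-like cells. Fabp5 ranged from 0.21 to 0.68 in endothelial-like, 2.81 to 3.27 in fibroblast-like, 0.22 to 0.65 in osteoblast-like and 2.61 to 3.13 in smooth muscle-like cells. The adjusted p of the Fabp4 difference between classes ranged from 1.14e-05 to 0.215. Signs also turned for Fabp4 in erythroid-like (−0.54 to 0.78), mpMSC-like (−0.16 to 0.68), septoclast-like (−0.41 to 0.57), endothelial cluster 0 (−0.16 to 0.03), endothelial cluster 2 (−0.09 to 0.13), hypertrophic (−0.51 to 0.21) and cycling chondrocyte-like cells (−0.91 to 1.21), and for Fabp3 (−1.10 to 0.68) and Fabp5 (−0.31 to 0.26) in hypertrophic cells.

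In other settings, Fabp4 was called in endothelial-like cells by DESeq2 (−0.63) and without the filter on low counts (−0.64), Fabp5 there by DESeq2 (0.44), Fabp4 in osteoblast-like cells with doublets removed (0.77) and Fabp4 in fibroblast-like cells clustered without integration (2.75). Without integration Fabp4 turned to −0.32 in BMSC-like and 0.75 in erythroid-like cells. With at least 3000 UMIs per cell it was 0.50 in erythroid-like cells, and in hypertrophic cells Fabp3 was 0.05 and Fabp5 0.13. Without the filter Fabp5 was 0.06 in hypertrophic cells and Fabp4 −0.02 in endothelial cluster 2, and 3721 genes were called in fibroblast-like cells. With the cluster mix held, the Fabp5 ratio in endothelial-like cells was 0.952. The causes were not tested.

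The labels do not say that replicate numbers pair preparations, and same-numbered preparations correlated at 0.035 to 0.112. With the replicate block, Fabp5 was 3.82 in BMSC-like and 2.87 in smooth muscle-like cells, Fabp4 turned to 0.10 in erythroid-like and Fabp5 to 0.00 in hypertrophic cells, and 4098, 1104 and 1094 genes were called in chondrocyte-like, fibroblast-like and osteoblast-like cells. Among the named subclasses and clusters the block ended the calls of Fabp5 in endothelial cluster 5 and of Fabp3 in non-hypertrophic cells.

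Differences of shares of cells, in percentage points, turned sign without thinning for Fabp4 in BMSC-like (5.79), endothelial-like (8.34) and osteoblast-like (0.806) and for Fabp3 in chondrocyte-like (2.60), osteoblast-like (−2.13) and smooth muscle-like cells (0.677). At 3000 UMIs they did so for Fabp3 in chondrocyte-like (0.595) and smooth muscle-like (0.415) and for Fabp4 in osteoblast-like cells (1.42). In erythroid-like cells Fabp4 (1.10) and Fabp5 (0.473) also turned without thinning, and Fabp3 in basophil- and granulocyte-like cells turned at 3000 UMIs (−0.127).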
